A study of Mus musculus with 9 samples.

Results

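Scara5, a scavenger receptor of class A that binds ferritin at the cell surface, was examined together with 9 genes of cellular iron handling in fibroblasts of the mouse spinal meninges. The 10 genes were found by their symbols in a table of 22013 genes. Scara5 was chosen by its measured difference between T and C, so its values are described without a test. The other 9 genes (Fth1, Ftl1, Tfrc, Trf, Slc40a1, Slc11a2, Steap3, Hmox1 and Cp) were chosen for their roles, with earlier results of these data known. All 10 genes passed the filter on low values, a TPM (a transcript level scaled by length and by the depth of the library) of at least 1 in at least 3 libraries, which 12553 genes passed in all.

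RNA sequencing covered 9 libraries of primary cells, 3 from each of the spinal segments labelled L, T and C. The labels do not spell these letters out, and they describe the cells as untreated. The study as a whole concerns the fibrotic scar that forms after spinal cord injury, but no library is labelled as injured, and the labels name no strain, age or sex. Nothing in the labels says whether the 3 libraries of a segment came from separate animals or cultures, so every p-value below measures only the spread between these libraries. Bulk RNA cannot tell fewer cells of a type from less RNA per cell.

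The libraries held 15652554 to 25204301 estimated counts, and 12057 to 12305 genes reached 1 TPM in each. Fibroblast markers (11 genes, among them Col1a1, Col1a2, Col3a1, Pdgfrb, Vim and Fn1) summed to 18445 to 18549 TPM in L, 15210 to 16268 TPM in T and 15870 to 16463 TPM in C. Red cell markers (10 genes) summed to at most 2.11 TPM in any library, with Hbb-bt, Slc4a1 and Epb42 at 0 throughout. Astrocyte and ependymal markers (8 genes) summed to 575 to 686 TPM in L, 656 to 703 TPM in T and 215 to 234 TPM in C. Gja1 alone held 532 to 646 TPM in L, 489 to 531 TPM in T and 102 to 123 TPM in C. Gfap ranged over 15.3 to 16.9 TPM in L, 102 to 112 TPM in T and 71.4 to 82 TPM in C. Choroid plexus markers (6 genes) summed to at most 6.56 TPM in any library.

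Cells take up iron bound to transferrin through the transferrin receptor, or bound to ferritin through receptors such as Scara5. In endosomes a reductase converts ferric to ferrous iron, which a divalent metal transporter moves into the cytosol. Iron is stored in ferritin, a shell of heavy and light chains, and leaves the cell through ferroportin with the help of a ferroxidase. Heme oxygenase releases further iron from heme. Iron regulatory proteins bind stem-loops called iron-responsive elements when iron is scarce. This binding blocks translation when the element lies in the 5′ untranslated region and protects the transcript when it lies in the 3′ untranslated region.

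Among the members with a match, the untranslated region that holds the element, 5′ or 3′, separates the storage and export genes from the uptake receptor. The elements that a strict motif search found in the members are shown for that reason. Each runs 5′ to 3′ on the transcript strand, with the 5 conserved first bases of the loop in capitals. They were read from the GENCODE M21 transcripts of build GRCm38, whereas the submitters' processing notes name build GRCm39 for mouse. The deposited table holds no coordinates, and genes were matched by symbol.
Fth1, 5′ untranslated region, chr19:9982733-9982759, + strand: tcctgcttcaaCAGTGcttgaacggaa
Ftl1, 5′ untranslated region, chr7:45459780-45459806, − strand: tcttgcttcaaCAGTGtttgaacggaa
Slc40a1, 5′ untranslated region, chr1:45925466-45925492, − strand: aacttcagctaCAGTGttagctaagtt
Tfrc, 3′ untranslated region, chr16:32631220-32631246, + strand: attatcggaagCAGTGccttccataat
Tfrc, 3′ untranslated region, chr16:32631599-32631625, + strand: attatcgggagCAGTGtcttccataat
Tfrc, 3′ untranslated region, chr16:32631664-32631690, + strand: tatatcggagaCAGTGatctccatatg
Tfrc, 3′ untranslated region, chr16:32631711-32631737, + strand: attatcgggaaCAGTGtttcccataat

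The motif searched on the transcript strand was a C, 5 bases, CAGTG, and 5 bases after the next base that pair with the first 5, G-U pairs allowed. Of 20529 protein-coding genes with an annotated 5′ untranslated region, 28 held it (0.136%), and of 20903 with a 3′ untranslated region, 127 held it (0.608%). The other members, Slc11a2 among them, held no match. The motif misses stems with other pairing or a further unpaired base, so no match does not mean no element. A match is a description of these letters and does not show that the element acts in these cells. RNA levels do not report on translation.

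Scara5 transcript was abundant in T and L and close to the limit of detection in C. It stood at 82.5, 90.8 and 81.2 TPM in L, at 189, 202 and 195 TPM in T, and at 0.601, 0.592 and 0.642 TPM in C. The groups did not overlap, and the order was the same in every library, with T above L and L above C. The estimated counts behind these levels were 2145, 2227 and 2513 in L, 5129, 6426 and 6003 in T, and 20, 19 and 27 in C. The fitted log2 difference was 8.18 in T minus C, 6.99 in L minus C and −1.18 in L minus T. Since C held at most 27 counts in a library, the folds against C rest on few reads. Among the 12553 genes ranked by mean TPM, Scara5 stood at 2153 in L, 870 in T and 12394 in C.

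Markers of the arachnoid barrier, the epithelium-like layer of the meninges, include genes with the order of Scara5. Cldn11, its tight junction claudin, ranged over 35.4 to 41.2 TPM in L, 107 to 115 TPM in T and 0.772 to 1.40 TPM in C. Wnt6 ranged over 36.7 to 38.8 TPM in L, 55.1 to 69.0 TPM in T and 2.05 to 3.08 TPM in C, and the adhesion gene Cdh1 over 1.05 to 1.81 TPM in L, 5.65 to 6.41 TPM in T and 0.102 to 0.214 TPM in C. These 3 were named after their values were seen. Of the 8 tested of 10 in the list, 5 passed as higher and 2 as lower in T minus C, 6 as higher and 2 as lower in L minus C, and 3 in each direction in L minus T. The whole list summed to 127 to 136 TPM in L, 211 to 231 TPM in T and 226 to 242 TPM in C, where Aldh1a2 alone held 208 to 225 TPM, and Krt18 was at 0 in C and at most 0.166 TPM elsewhere. Pdgfra, a fibroblast marker, also had the order T, L, C, with 6.41 to 7.87 TPM in L, 21.7 to 24.2 TPM in T and 3.04 to 4.06 TPM in C. Thy1, of the same list, had the reverse order, with 217 to 240 TPM in L, 148 to 169 in T and 862 to 887 in C. Of the 11 fibroblast markers, all tested, 5 passed as higher and 5 as lower in T minus C. In L minus C 5 were higher and 4 lower, and in L minus T 6 were higher and 2 lower. The part of the arachnoid barrier and fibroblast markers in the Scara5 difference was not tested.

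**Figure D1:**
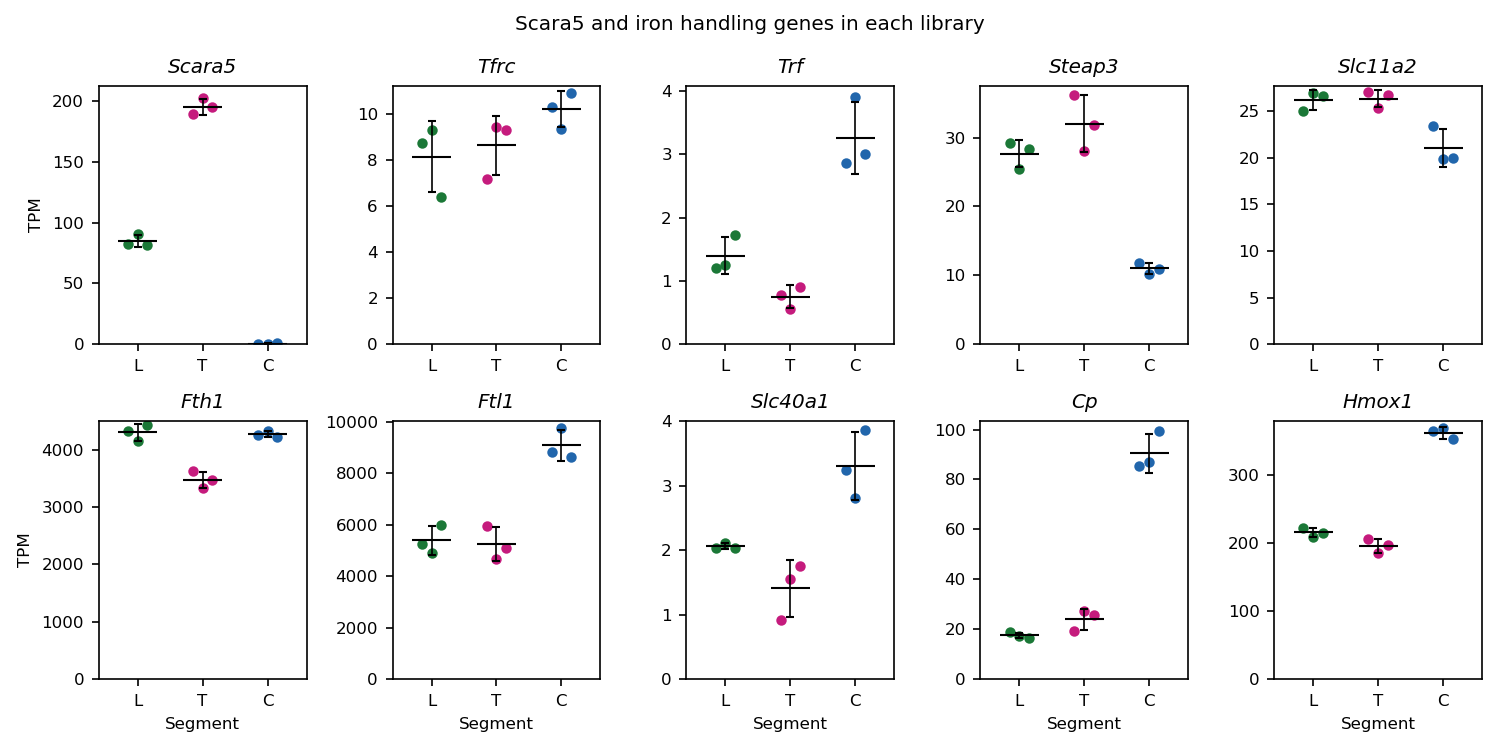
TPM (vertical axis, from 0) of Scara5 and 9 iron handling genes in segments L, T and C; points are libraries, horizontal lines the mean and bars the SD (n = 3). Scara5 lies at 189 to 202 TPM in T, 81.2 to 90.8 TPM in L and under 1 TPM in C, while Cp, Hmox1, Ftl1, Slc40a1 and Trf are highest in C and Steap3 is lowest there.

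The order of levels across genes, taken on the TPM scale, placed ferritin at the top in all 3 segments. Ftl1 came first and Fth1 second, followed by Hmox1. Ftl1 ranked 10 among all genes tested in L, 10 in T and 3 in C, and Fth1 ranked 16 in L, 21 in T and 18 in C. In L the order continued with Scara5, Steap3, Slc11a2, Cp, Tfrc, Slc40a1 and Trf, and the libraries of Steap3 and Slc11a2 overlapped. In T the libraries of Hmox1 and Scara5 overlapped, so that the ferritin receptor stood level with heme oxygenase, and those of Slc11a2 and Cp overlapped as well. In C, Cp followed Hmox1, then came Slc11a2, Steap3, Tfrc, Slc40a1, Trf and, last, Scara5, with overlap between Steap3 and Tfrc and between Slc40a1 and Trf.

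T and C differed in most of the 9 genes other than Scara5. In edgeR's quasi-likelihood test, adjusted by Benjamini-Hochberg over all 12553 genes, Steap3 was higher in T and 7 genes were lower (Fth1, Ftl1, Tfrc, Trf, Slc40a1, Hmox1 and Cp), while Slc11a2 did not pass. At that threshold, an adjusted p of 0.05, 51.1% of all genes tested were called between T and C, 25.8% higher and 25.2% lower in T. Between L and C, Steap3 was higher in L, 6 genes were lower (Ftl1, Tfrc, Trf, Slc40a1, Hmox1 and Cp), and Fth1 and Slc11a2 did not pass. There 49.6% of all genes were called, 24.4% higher and 25.2% lower in L. Both comparisons use the same C libraries. Between L and T, Fth1 was higher and Cp lower in L and 7 genes did not pass, against 16.1% of all genes called, 7.88% higher and 8.21% lower in L. On the TPM scale, 2 of the 9 genes (Slc11a2 and Steap3) lay above C in every T library, 6 lay below and Tfrc overlapped, beside 58.1% of all genes without overlap, 37.2% higher and 20.8% lower in T. Likewise 2 lay above C in every L library and 6 below, and Fth1 overlapped, beside 58.6% of all genes, 36.6% higher and 22.0% lower in L. L lay above T without overlap in 4 (Fth1, Trf, Slc40a1 and Hmox1) and below in 1 (Cp), beside 28.2% of all genes, 12.7% higher and 15.5% lower in L. With limma on log2(TPM + 1), where the median of all genes moved to 0.13 in T minus C and 0.10 in L minus C, the calls over all genes split into 4110 higher and 2214 lower in T, and into 3737 higher and 2246 lower in L, against 3240 higher and 3169 lower in T and 3064 higher and 3166 lower in L with edgeR.

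**Figure D2:**
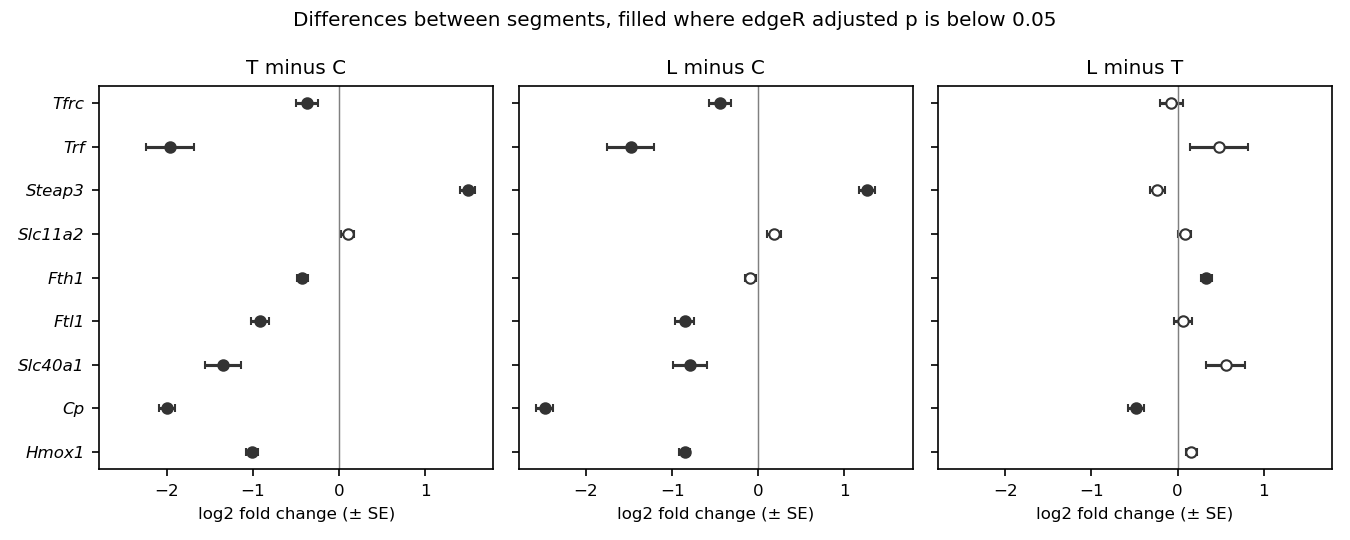
Log2 fold change with its standard error (horizontal axis) of the 9 genes other than Scara5 in each pair of segments; filled points have an edgeR adjusted p below 0.05. Steap3 lies to the right of 0 against C, Cp, Trf, Hmox1, Slc40a1 and Ftl1 lie to the left, and between L and T the filled points are Fth1 and Cp.

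Tfrc, the transferrin receptor that carries iron-loaded transferrin into the cell, was a weakly expressed gene with small differences. It had 8.77, 9.32 and 6.39 TPM in L, 7.18, 9.47 and 9.30 TPM in T, and 10.3, 9.38 and 10.9 TPM in C. All L libraries lay below the C libraries, and the T and C libraries overlapped. The edgeR log2 difference was −0.37 ± 0.13 (SE) in T minus C (adjusted p = 0.028) and −0.44 ± 0.13 in L minus C (adjusted p = 0.0125). Both calls depended on the scale and on single libraries. With limma on log2(TPM + 1) and on log2(TPM + 0.1), the adjusted p was 0.227 and 0.231 in T minus C. In L minus C it was 0.11 and 0.111 with the same 2 fits. The T minus C call was also lost with edgeR scaled by library totals only (adjusted p = 0.0649). Between T and C the adjusted p was 0.0732 without T replicate 1, 0.0878 without C replicate 1 and 0.117 without C replicate 3, and over 18 alternatives it lay between 0.0141 and 0.231. Between L and C it was 0.0683 without L replicate 3, where the log2 difference was −0.29, and 0.0599 without C replicate 3, its lowest and highest being 0.00333 and 0.111. Between L and T the log2 difference was −0.07 (adjusted p = 0.783).

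Trf encodes transferrin, the iron carrier of plasma that the receptor binds. Its transcript was near the filter, with 1.20, 1.255 and 1.73 TPM in L, 0.785, 0.557 and 0.909 TPM in T, and 2.86, 3.91 and 3.01 TPM in C. The TPM values did not overlap, with C highest and T lowest. The counts were few, 21, 19 and 16 in L, 14, 12 and 19 in T, and 44, 68 and 82 in C. L and T overlapped in counts, and L replicate 3 had the highest TPM but the lowest count of the L libraries. Trf was 3.89-fold lower in T than in C (log2 −1.96 ± 0.28 SE, edgeR adjusted p = 5.57e-05) and 2.79-fold lower in L than in C (log2 −1.48 ± 0.27, adjusted p = 0.000487), while L minus T did not pass (log2 0.48, adjusted p = 0.406). On log2(TPM + 1), which understates the change of low genes, limma gave −1.28 for T minus C and −0.83 for L minus C. Transferrin is also made by myelinating glia. Schwann cell markers (10 genes) had the same order, at 102 to 106 TPM in sum in L, 47.6 to 50.9 TPM in T and 194 to 201 TPM in C, and 8 of the 9 tested were lower and 1 higher in T than in C, as in L against C. Endothelial markers (8 genes, Cldn5 at 0 in all libraries) summed to 59.2 to 63.4 TPM in L, 48.8 to 49.5 TPM in T and 105 to 117 TPM in C. Cdh5 alone held 52.9 to 56.5 TPM in L, 42.7 to 43.6 in T and 79.3 to 89.4 in C. Of the 5 tested, 4 were lower and 1 higher in T than in C, as in L against C. Mural markers (10 genes) summed to 6938 to 7601 TPM in L, 4790 to 5377 in T and 8315 to 8460 in C. Acta2 alone held 7729 to 7853 TPM in C. Of the 8 mural markers tested, 7 were lower in T and 6 in L than in C, and 0 higher. The Schwann cell, endothelial and mural share of the Trf result was not tested. Oligodendrocyte markers (11 genes, Mog at 0 in T and C and Mobp at 0 in L and T) summed to 99.1 to 104 TPM in L, 154 to 169 TPM in T and 82.2 to 84.9 TPM in C. Cldn11, also an arachnoid barrier marker, held 35.4 to 41.2 TPM in L, 107 to 115 in T and 0.772 to 1.40 in C. Of the 7 oligodendrocyte markers tested, 5 were lower and 1 higher in T than in C, as in L against C. In L minus T, 3 were higher and 2 lower. Their share of the Trf result was not tested either.

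Steap3, the endosomal ferrireductase that prepares iron for transport into the cytosol, was the only member with a test that was higher than C in both T and L in the edgeR fit. It had 29.2, 25.4 and 28.4 TPM in L, 36.2, 28.0 and 31.9 TPM in T, and 11.8, 10.2 and 10.9 TPM in C. Every L and T library was above every C library, and L and T overlapped. The fold was 2.82 in T over C (log2 1.49 ± 0.09 SE, edgeR adjusted p = 1.14e-08) and 2.39 in L over C (log2 1.26 ± 0.09, adjusted p = 9.4e-08). L minus T was −0.23 (adjusted p = 0.087), and of 18 alternatives it passed only without T replicate 2, where the adjusted p was 0.0269 (highest 0.359).

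Slc11a2, the divalent metal transporter DMT1 that moves ferrous iron out of endosomes, had small differences between segments. It had 25.0, 27.0 and 26.6 TPM in L, 27.0, 25.3 and 26.7 TPM in T, and 23.4, 19.8 and 20.0 TPM in C. On the TPM scale all L and T libraries exceeded all C libraries. With edgeR on counts the log2 difference was 0.10 ± 0.08 (SE) in T minus C (adjusted p = 0.292) and 0.18 ± 0.08 in L minus C (adjusted p = 0.0661). With limma on log2(TPM + 1) both passed, at 0.31 in T minus C (adjusted p = 0.0092) and 0.30 in L minus C (adjusted p = 0.0114), before the shift of all genes on that scale is taken off. The L minus C call was also gained without T replicate 1 (adjusted p = 0.041) and without T replicate 2 (adjusted p = 0.0496). Over 18 alternatives the adjusted p lay between 0.00879 and 0.643 in T minus C and between 0.0109 and 0.158 in L minus C.

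Fth1 encodes the ferritin heavy chain, which oxidises incoming iron. Its level was 4324, 4152 and 4439 TPM in L, 3622, 3341 and 3474 TPM in T, and 4257, 4334 and 4223 TPM in C. T lay below the other segments without overlap, and L and C overlapped. Fth1 was 1.34-fold lower in T than in C (log2 −0.42 ± 0.06 SE, edgeR adjusted p = 9.2e-05) and, with L over T, 1.26-fold higher in L (log2 0.33 ± 0.06, adjusted p = 0.00251). L minus C was −0.09 ± 0.06 (adjusted p = 0.246).

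Ftl1 encodes the ferritin light chain, which favours the growth of the mineral core. It had 5265, 4893 and 5997 TPM in L, 5964, 4658 and 5092 TPM in T, and 8807, 9771 and 8644 TPM in C. Here C stood above both other segments, which overlapped each other. Ftl1 was 1.89-fold lower in T than in C (log2 −0.92 ± 0.11 SE, edgeR adjusted p = 8.91e-06) and 1.81-fold lower in L than in C (log2 −0.86 ± 0.11, adjusted p = 1.87e-05), with 0.06 for L minus T (adjusted p = 0.782). A near-identical copy, Ftl1-ps1, can take reads of Ftl1, so the Ftl1 level is uncertain to the extent that the authors' counting split them.

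The light chain therefore made up less of the ferritin transcript pool in L and T than in C. The ratio of Ftl1 to Fth1 TPM was 1.22, 1.18 and 1.35 in L, 1.65, 1.39 and 1.47 in T, and 2.07, 2.25 and 2.05 in C. The 3 segments did not overlap in this ratio. Its means were 1.25 ± 0.0905 in L, 1.502 ± 0.130 in T and 2.12 ± 0.114 in C (SD, n = 3 each), and the two-sided exact permutation p was 0.1 for each pair, the smallest that 3 against 3 libraries can give. Both chains together summed to 9690 ± 701 TPM in L, 8717 ± 804 TPM in T and 13345 ± 665 TPM in C, or 0.969%, 0.872% and 1.33% of all transcripts in L, T and C. For the sum the exact permutation p was 0.1 for T against C and for L against C, and 0.2 for L against T.

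**Figure D3:**
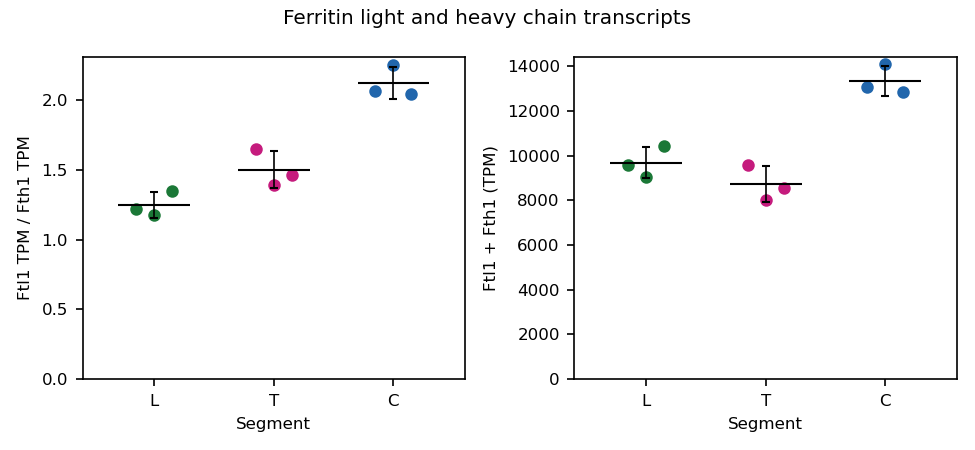
Ratio of Ftl1 to Fth1 TPM (left) and their summed TPM (right) in segments L, T and C; points are libraries, lines the mean and bars the SD (n = 3). The ratio is 1.18 to 1.35 in L, 1.39 to 1.65 in T and 2.05 to 2.25 in C.

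Slc40a1 encodes ferroportin, the iron exporter of the plasma membrane. It was low in all segments, with 2.03, 2.11 and 2.04 TPM in L, 0.913, 1.56 and 1.75 TPM in T, and 3.25, 2.81 and 3.86 TPM in C, and the segments did not overlap. Slc40a1 was 2.55-fold lower in T than in C (log2 −1.35 ± 0.21 SE, edgeR adjusted p = 0.000117) and 1.73-fold lower in L than in C (log2 −0.79 ± 0.20, adjusted p = 0.00538), and L minus T did not pass (log2 0.56, adjusted p = 0.128). Limma on log2(TPM + 1) gave −0.85 for T minus C and −0.49 for L minus C. Macrophages are a known site of ferroportin. Macrophage markers (16 genes, Cd163 at 0 in L and T and at most 0.027 TPM in C) summed to 33.8 to 37.997 TPM in L, 77.2 to 82.7 TPM in T and 76.5 to 81.1 TPM in C. Of the 11 tested, Cd68 was higher in T than in C and the complement genes C1qa, C1qb and C1qc were lower, and 9 were lower in L than in C. C1qc, for example, ranged over 3.47 to 4.61 TPM in L, 7.67 to 9.92 TPM in T and 12.2 to 15.4 TPM in C. The Schwann cell, endothelial and mural sums had the order of Slc40a1. The part of these cell types and of macrophages in the Slc40a1 result was not tested.

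Cp encodes ceruloplasmin, the copper ferroxidase that loads exported iron onto transferrin. In the edgeR fit it had the largest log2 differences from C of the 9 genes with a test. Its levels were 18.7, 17.4 and 16.3 TPM in L, 19.2, 27.2 and 25.7 TPM in T, and 85.2, 86.8 and 99.4 TPM in C. All 3 segments were separate, with L lowest. Cp was 3.98-fold lower in T than in C (log2 −1.99 ± 0.09 SE, edgeR adjusted p = 9.33e-10), 5.57-fold lower in L than in C (log2 −2.48 ± 0.10, adjusted p = 2.32e-10) and 1.40-fold lower in L than in T (log2 −0.48 ± 0.10, adjusted p = 0.00349). Of the 8 astrocyte and ependymal markers, all tested, 5 were higher and 3 lower in T minus C, beside 51.1% of all genes called. In L minus C 2 were higher and 5 lower, beside 49.6%, and in L minus T 1 was higher and 5 lower, beside 16.1%. The Schwann cell, endothelial and mural sums were highest in C, as Cp was, and the astrocyte and ependymal sum was lowest there. The part of these cell types in the Cp result was not tested.

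Hmox1, the inducible heme oxygenase, had 222, 209.7 and 215 TPM in L, 206, 185 and 198 TPM in T, and 365, 369 and 353 TPM in C. It was 2.01-fold lower in T than in C (log2 −1.01 ± 0.07 SE, edgeR adjusted p = 2.4e-08) and 1.81-fold lower in L than in C (log2 −0.85 ± 0.07, adjusted p = 1.67e-07). The L libraries lay just above the T libraries, and C stood apart. L minus T was 0.16 (adjusted p = 0.139), and of 18 alternatives it passed only without T replicate 1 (adjusted p = 0.0303, highest 0.383). Macrophages also express Hmox1. Of their 11 tested markers, 3 were lower and 1 was higher in T minus C and 9 were lower in L minus C, and their part in the Hmox1 result was not tested.

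The wider pathway was covered by 7 lists of 113 other genes, of which 95 passed the filter. The filter left out the hepcidin genes Hamp and Hamp2, the second transferrin receptor Tfr2 and the mitochondrial ferritin Ftmt, among 18 genes. In T minus C, 15 of the 95 were higher and 34 lower, 51.6% in all, beside 51.1% of all genes tested. In L minus C, 10 were higher and 34 lower (46.3%, beside 49.6% of all genes), and in L minus T, 6 were higher and 18 lower (25.3%, beside 16.1%). The counts of each list below stand beside these same shares over all genes, and no list was tested against other genes. With limma on log2(TPM + 1), the counts were 25 higher and 20 lower in T minus C and 20 higher and 25 lower in L minus C, so the balance of directions over these lists depended on the scale. Medians below are log2 differences, and the median over all genes tested was 0.02 in T minus C, 0.01 in L minus C and −0.00255 in L minus T.

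**Figure D4:**
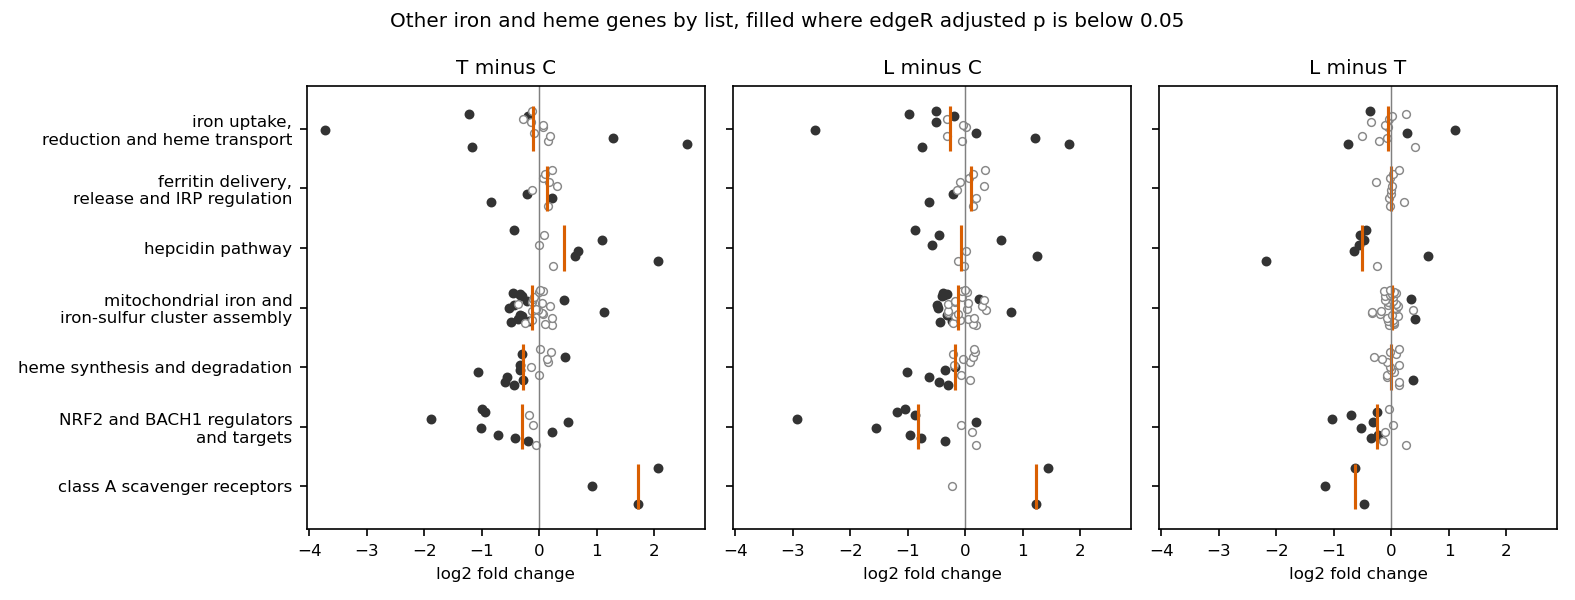
Log2 fold change (horizontal axis) of the 95 other iron and heme genes tested, by list, in each pair of segments; filled points have an edgeR adjusted p below 0.05 and the orange bar is the list's median. The class A scavenger receptors lie to the right in T minus C and to the left in L minus T, and most NRF2 and BACH1 targets lie to the left of 0 against C.

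Class A scavenger receptors, the family of Scara5, had 3 of 4 genes tested. Marco fell under the filter, listed at 0 TPM in every L and T library and at 0.221 ± 0.155 TPM in C. With no filter, the 4 genes split into 3 higher and 1 lower in T minus C (median 1.323) and 2 higher and 1 lower in L minus C (median 0.50). With it, all 3 were higher in T than in C (median 1.72), 2 were higher in L than in C (median 1.23), and all 3 were lower in L than in T (median −0.63). Scara3 averaged 144 ± 2.197 TPM in L, 225.5 ± 3.95 TPM in T and 49.4 ± 1.31 TPM in C (SD, n = 3 each), with edgeR adjusted p = 6.62e-12 in T minus C. Colec12, a scavenger receptor with a collectin domain, averaged 124.6 ± 13.5 TPM in L, 177 ± 26.6 TPM in T and 48.4 ± 1.81 TPM in C (adjusted p = 4.03e-09 in T minus C). Both thus had the order of Scara5, with smaller folds. Msr1, the macrophage scavenger receptor, averaged 1.80 ± 0.443 TPM in L, 3.76 ± 0.159 TPM in T and 1.56 ± 0.103 TPM in C. It was 1.89-fold higher in T than in C (adjusted p = 0.00106) and 2.23-fold lower in L than in T (adjusted p = 0.000978). The macrophage sums given above were also lower in L than in T, and their part in the Msr1 result was not tested.

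Among 14 tested genes of uptake, reduction and heme transport (of 25), T minus C had 2 higher and 4 lower, L minus C had 3 higher and 6 lower, and L minus T had 2 higher and 2 lower. The median was −0.07 in L minus T, −0.26 in L minus C and −0.11 in T minus C, and the last was 0.06 with limma on log2(TPM + 1). Lrp2, the endocytic receptor megalin, averaged 3.48 ± 0.448 TPM in L, 1.56 ± 0.122 TPM in T and 19.0 ± 0.984 TPM in C. It was 13.2-fold lower in T than in C (edgeR adjusted p = 8.23e-13) and 6.13-fold lower in L than in C (adjusted p = 1.94e-11). Cybrd1, a ferric reductase of the plasma membrane, averaged 3.03 ± 0.487 TPM in L, 5.16 ± 0.579 TPM in T and 0.783 ± 0.286 TPM in C. It was 5.91-fold higher in T than in C (adjusted p = 1.86e-07) and 3.50-fold higher in L than in C (adjusted p = 1.15e-05). Between L and T its call (1.69-fold lower in L, adjusted p = 0.00913) was lost without L replicate 1 (adjusted p = 0.0512, range 0.0017 to 0.0707 over 17 alternatives). Flvcr2, a transporter of the heme exporter family, was 2.43-fold higher in T and 2.31-fold higher in L than in C. Steap1, a relative of Steap3, went the other way, 2.34-fold lower in T and 1.97-fold lower in L than in C. Between L and T, Lrp1, a receptor that takes up heme bound to hemopexin, was 1.21-fold higher and Steap2 1.30-fold lower in L.

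Of 10 tested genes that deliver iron to ferritin, release it or sense it, T minus C had 1 higher and 2 lower (median 0.13), and 2 were lower in L than in C (median 0.09). In L minus T, 0 passed with edgeR, DESeq2 or limma on all 9 libraries, and 1, lower in L, passed with edgeR without T replicate 1. With all libraries, 1 gene, lower in L, had an unadjusted edgeR p under 0.05. With limma on log2(TPM + 1), 5 were higher and 1 lower in both comparisons with C. Bola2, which with Glrx3 chaperones iron-sulfur clusters, averaged 23.8 ± 4.23 TPM in L, 19.9 ± 4.47 TPM in T and 35.0 ± 1.59 TPM in C, with edgeR adjusted p = 0.000703 in T minus C and 0.006 in L minus C. Glrx3 was 1.16-fold lower than C in T and in L (adjusted p = 0.00352 in T minus C and 0.00367 in L minus C), which limma did not call on log2(TPM + 1) (adjusted p = 0.145 in T minus C and 0.0885 in L minus C, the lowest being 0.000179 and 0.000321 over the alternatives). Fbxl5, the iron-sensing ubiquitin ligase subunit that degrades an iron regulatory protein, was 1.17-fold higher in T than in C (adjusted p = 0.0415). That call was lost without L replicate 1, T replicate 2, T replicate 3, C replicate 1 or C replicate 2, with 0.164 as its highest adjusted p, without T replicate 2, and 0.0077 as its lowest over 18 alternatives. On all 9 libraries it was lost with DESeq2 (adjusted p = 0.0507) and with edgeR on DESeq2 size factors (adjusted p = 0.0512). Limma on median-centred log2(TPM + 1) did not call it either (adjusted p = 0.102). Between L and T the levels of Pcbp2, an iron chaperone to ferritin, were 582 ± 8.71 TPM in L and 581 ± 7.06 TPM in T.

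In the hepcidin pathway, which sets systemic iron through BMP signals, 8 of 12 genes were tested. In T minus C 4 were higher and 1 lower (median 0.43), in L minus C 2 were higher and 3 lower (median −0.07), and in L minus T 1 was higher and 6 lower (median −0.52). Bmp6, the ligand that induces hepcidin in the liver, averaged 3.83 ± 0.160 TPM in L, 17.7 ± 0.427 TPM in T and 3.85 ± 0.453 TPM in C. It was 4.19-fold higher in T than in C (edgeR adjusted p = 1.19e-09) and 4.55-fold lower in L than in T (adjusted p = 1.07e-08). Neo1, a coreceptor of that pathway, was 2.14-fold higher in T than in C and 1.54-fold higher in L than in C. Erfe, a secreted factor that binds BMP ligands, averaged 17.7 ± 1.71 TPM in L, 11.7 ± 0.504 TPM in T and 6.82 ± 1.04 TPM in C, and it was 2.38-fold higher in L than in C (adjusted p = 1.49e-06). The BMP-induced genes Smad7 and Id1 were lower in L than in C, by 1.84-fold and 1.49-fold, and Id1 was 1.48-fold lower in L than in T. Hfe, which modulates the sensing of transferrin, was 1.59-fold higher in T than in C and 1.57-fold lower in L than in T (adjusted p = 0.0139). Limma on median-centred log2(TPM + 1) did not call the T minus C difference of Hfe (adjusted p = 0.0778, lowest 0.00166 over its alternatives). The L minus T call of Hfe was lost without L replicate 1 (adjusted p = 0.0632) and without T replicate 2 (adjusted p = 0.0611), the p lying between 0.00238 and 0.0632 over 17 alternatives.

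All 33 genes of mitochondrial iron import and iron-sulfur cluster assembly were tested. In T minus C 2 were higher and 12 lower (median −0.12), in L minus C 2 were higher and 9 lower (median −0.14), and in L minus T 2 were higher (median 0.01). With limma on log2(TPM + 1), T minus C had 3 higher and 5 lower. Fdx1, a mitochondrial ferredoxin, was among the 2 genes higher in each comparison with C, with 33.4 ± 1.52 TPM in L, 42.1 ± 5.96 TPM in T and 18.0 ± 1.15 TPM in C, and it was 2.18-fold higher in T (edgeR adjusted p = 5.29e-06) and 1.73-fold higher in L (adjusted p = 0.000175) than in C. The cluster carrier Glrx5 was 1.44-fold lower in T and 1.39-fold lower in L than in C. Nubp2, a cytosolic assembly factor, was 1.38-fold lower in T than in C, and the chaperone Hspa9 was 1.40-fold lower in L than in C. Bola3, another assembly factor, was 1.40-fold lower in T than in C and 1.36-fold lower in L than in C (adjusted p = 0.0113). The L minus C call of Bola3 was lost without L replicate 1 (adjusted p = 0.0515) and without C replicate 3 (adjusted p = 0.0604), the p lying between 0.004 and 0.0709 in all alternatives, and the T minus C call with limma on log2(TPM + 1) (adjusted p = 0.0983, between 0.00117 and 0.0993 in all). Between L and T, the cytosolic assembly genes Mms19 and Ciao2b were 1.27-fold and 1.33-fold higher in L. The Ciao2b call was lost without L replicate 1 (adjusted p = 0.0874), L replicate 3 (adjusted p = 0.0992) or T replicate 2 (adjusted p = 0.121), with 0.0172 to 0.121 over its alternatives.

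Of 15 tested genes of heme synthesis and degradation, T minus C had 1 higher and 8 lower (median −0.28), 6 were lower in L than in C (median −0.17), and 1 was higher in L than in T. With limma on log2(TPM + 1), 4 were higher and 4 lower in T minus C, and 3 higher and 3 lower in L minus C. Blvrb, a biliverdin reductase that acts downstream of heme oxygenase, averaged 35.3 ± 2.82 TPM in L, 34.6 ± 4.61 TPM in T and 66.5 ± 6.92 TPM in C, with edgeR adjusted p = 5.34e-06 in T minus C and 9.98e-06 in L minus C. Alas1, the rate-limiting enzyme of heme synthesis outside red cells, averaged 94.9 ± 7.97 TPM in L, 101 ± 6.17 TPM in T and 139 ± 6.81 TPM in C (adjusted p = 5.83e-05 in T minus C and 1.84e-05 in L minus C). The transporters Abcb6 and Abcb10 were 1.504-fold and 1.36-fold lower in T than in C. In L minus C, Abcb6 was 1.37-fold lower, as was Cpox, an enzyme of the pathway, by 1.27-fold, which limma on log2(TPM + 1) did not call (adjusted p = 0.0613, lowest 0.00196 over its alternatives). Alad, its second enzyme, had a fold of 1.29 in L over T (adjusted p = 0.0274), a call lost without L replicate 3 (adjusted p = 0.103), T replicate 2 (adjusted p = 0.104) or T replicate 3 (adjusted p = 0.0718), with 0.00829 to 0.104 over its alternatives.

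NRF2 and BACH1 are the transcription factors that activate and repress Hmox1 and the ferritin genes. Of 12 genes in this list, all tested, T minus C had 2 higher and 7 lower (median −0.31), L minus C had 1 higher and 8 lower (median −0.83), and 7 were lower in L than in T (median −0.24). The higher genes were regulators. Nfe2l2, which encodes NRF2, had a log2 difference of 0.50 in T minus C (edgeR adjusted p = 4.94e-06). It had 0.18 in L minus C (adjusted p = 0.014), where 0 genes passed as higher without L replicate 1. Keap1 had 0.23 in T minus C (adjusted p = 0.0335). There only 1 gene passed as higher without T replicate 1, T replicate 3 or C replicate 1, and with limma on median-centred log2(TPM + 1). Nqo1, a quinone reductase, averaged 40.0 ± 1.60 TPM in L, 83.5 ± 6.60 TPM in T and 283 ± 7.59 TPM in C, with every segment apart from the others. It was 3.70-fold lower in T than in C (edgeR adjusted p = 2.82e-10), 7.60-fold lower in L than in C (adjusted p = 1.37e-11) and 2.06-fold lower in L than in T (adjusted p = 1.03e-06). Maff, a small Maf partner of these factors, was 2.02-fold lower in T and 2.92-fold lower in L than in C. The redox enzymes Txnrd1 and Srxn1 were 2.00-fold and 1.93-fold lower in T, and 2.06-fold and 2.29-fold lower in L, than in C. Between L and T, the cystine transporter Slc7a11 was 1.63-fold and Gclc, an enzyme of glutathione synthesis, 1.29-fold lower in L.

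The genes whose levels were most like those of Scara5 were sought by Pearson's r of log2(TPM + 1) over the 9 libraries, as a description, since the libraries fall into 3 segments and genes with the order T, L, C can score high without more in common. Of the other 12552 genes, 82 reached an r of 0.99. The 8 highest with r of 0.997 to 0.999 were Ntrk3, Hoxa7, Eda, Hoxc6, Kng1, Adgrl2, Il1rn and Svep1. Kng1, the kininogen precursor, averaged 67.8 ± 2.63 TPM in L, 115 ± 2.39 TPM in T and 1.07 ± 0.294 TPM in C, and it belongs to a family of near-identical copies. Il1rn, the secreted antagonist of the interleukin-1 receptor, averaged 547 ± 8.97 TPM in L, 1265 ± 76.3 TPM in T and 35.6 ± 2.09 TPM in C. Its ratio of L to T TPM was 0.432, beside 0.434 for Scara5, whereas that of the other 7 ran from 0.588 for Kng1 to 0.842 for Svep1. The homeobox gene Hoxa7 averaged 109 ± 2.01 TPM in L, 154 ± 6.15 TPM in T and 11.8 ± 0.660 TPM in C. Hoxc6, a homeobox gene of another cluster, averaged 96.4 ± 5.26 TPM in L, 135 ± 4.97 TPM in T and 19.0 ± 1.60 TPM in C. None of the 9 iron handling genes was among the 8, a ranking in which a gene with a negative r cannot stand high. Their r with Scara5 was 0.984 for Steap3 and 0.891 for Slc11a2. It was −0.995 for Hmox1, −0.952 for Trf, −0.949 for Ftl1, −0.934 for Cp, −0.875 for Slc40a1, −0.593 for Fth1 and −0.56 for Tfrc.

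**Figure D5:**
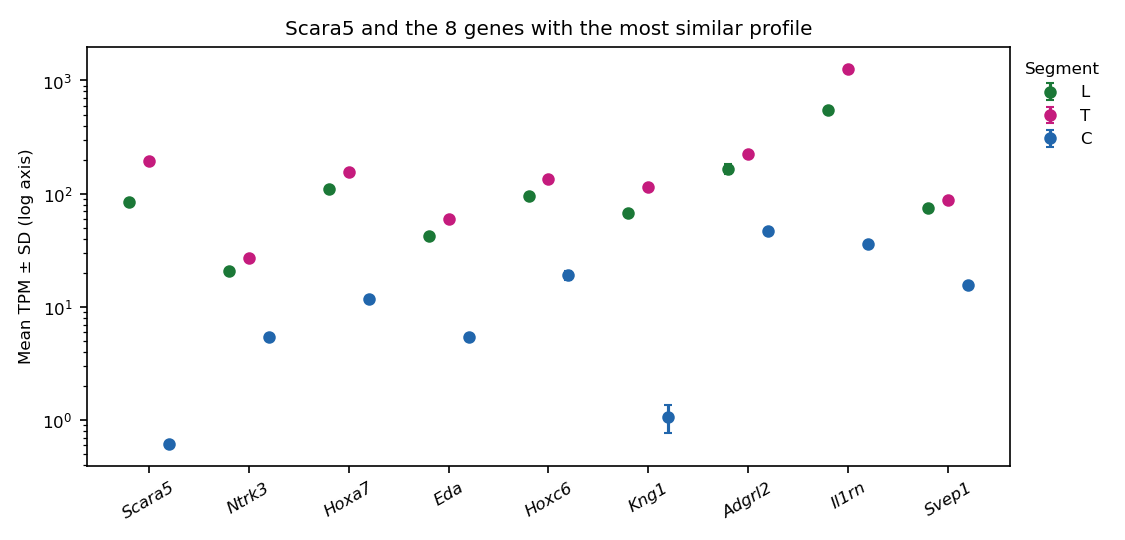
Mean TPM on a log axis, with SD (n = 3), of Scara5 and the 8 genes with the highest Pearson's r with it over 9 libraries, in segments L, T and C. All are highest in T and lowest in C, and Scara5 and Kng1 have the lowest levels in C, at 0.612 and 1.07 TPM.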

How the data were processed

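Total RNA of 9 libraries was sequenced with a strand-keeping kit, per the labels' protocols. The deposited table gives, per gene and library, an estimated count and a TPM made by the authors. Per the submitters' processing notes, the tools were DESeq2 1.32.0, StringTie 2.1.4, HISAT2 2.2.1, Trimmomatic 0.39 and FastQC 0.11.9, and the notes name builds GRCm39 and GRCh38. What each was used for, the annotation and the strand setting were not given in the sources used here. Whole numbers made up 92.7% of the estimated counts, and the rest were rounded. A transcript-based TPM can move apart from the count when the mix of transcripts differs.

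Genes reaching 1 TPM in 3 or more of the 9 libraries were tested (12553 of 22013, 112 of the 22013 having no symbol). All libraries entered one fit with segment as the factor: edgeR 4.0.16 quasi-likelihood tests with TMM scaling in R 4.3.3, Benjamini-Hochberg over all genes tested, threshold 0.05, two-sided. Standard errors were taken from the log2 fold change and F. The code was tested on simulated data. The alternatives (18) used DESeq2 1.42.0, limma 3.58.1, other scalings, filters and pseudocounts, a replicate block, and each library left out. The median-centred limma fit was added after seeing the data. Ratios and sums of the ferritin chains were compared by exact permutation.

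The members, lists and tests were chosen with earlier results of these data known. All members are named, up to 4 genes past the threshold with the largest log2 change per list and comparison (or, with none, the 2 most abundant), and the 8 genes most like Scara5, clone-based, predicted and pseudogene symbols left out. Nfe2l2 and Keap1 are named besides, as regulators, and are outside the tally of named genes under the alternatives. Of 3 entries for Ndor1 the one with most counts was used. Samples were assigned by title, because for L replicate 3 the description gives the same column as for L replicate 2.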

Additional observations from a re-analysis of the deposited data

How the results depend on the processing

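The counts of genes called, over all genes, over the 9 members with a test and over the 95 other iron and heme genes, stayed within 1.5 times the reported counts under all 18 alternatives. This bound takes no account of direction and is loose for so few members. The filters also changed the genes counted, to 87 other iron and heme genes at 5 TPM and 109 with no filter. Trf and Slc40a1 were left out at 5 TPM. Replicate numbers were not taken to pair the libraries, since the deviations of same-numbered libraries from their segment means correlated at only −0.15 to 0.29. With a replicate block, 6252 genes were called in T minus C, 6084 in L minus C and 1892 in L minus T, with 8, 7 and 2 members and 47, 47 and 23 of the other iron and heme genes. For the genes named, 1716 of 1785 values kept direction and side of the threshold, 41 lost the threshold, 9 gained it, 12 changed sign and 7 moved by more than the spread. All sign changes were of differences that did not pass, and their cause was not tested. With limma on log2(TPM + 1) and on log2(TPM + 0.1), Fth1 in L minus C was 0.011 and Slc11a2 in L minus T was −0.00792 and −0.0082. With 1 library left out at a time, L minus T of Ftl1 lay between −0.041 (without L replicate 3) and 0.18, that of Tfrc between −0.17 and 0.067 (without L replicate 3), and that of Glrx3 between −0.014 and 0.020 (without L replicate 3). Glrx3 in L minus T was also 0.00646 with DESeq2, 0.00656 with its size factors and 0.00159 without the filter. The Scara5 difference ranged from 6.77 to 8.24 in T minus C, 5.59 to 7.04 in L minus C and −1.22 to −1.16 in L minus T, the lowest values against C coming from limma on median-centred log2(TPM + 1). Counts of 12 to 82 limit the precision for Trf, as do 19 to 27 for Scara5 in C.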
